A study of Mus musculus with 4 samples.

Results

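Glucose uptake and glycolysis in the PIMT-deficient heart were followed through 9 genes, taken by name from the 23337 gene symbols listed in every library. They were the glucose transporter genes Slc2a1 and Slc2a4, the hexokinase genes Hk1 and Hk2, the phosphofructokinase genes Pfkm and Pfkl, the aldolase gene Aldoa and the lactate dehydrogenase genes Ldha and Ldhb. All 9 were found in all 4 libraries, and all 9 passed the filter on low values, with at least 254 reads per gene and library.

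RNA-seq, which measures the RNA of each gene by the number of sequenced reads that fall on it, was carried out on whole hearts of C57BL6/J mice. Control mice carried loxP-flanked PIMT alleles (PIMT fl/fl, named wild type in one of the labels) and were 2 or 6 months old. The csPIMT-/- mice, of the same 2 ages, carried the same floxed alleles and in addition a Cre recombinase transgene under the cardiac α-myosin heavy chain promoter, by which PIMT was deleted in cardiomyocytes from the late embryonic period onward. RNA of 5 hearts, from male and female mice, was pooled for each library, so that each of the 4 groups was 1 library and none had a replicate. The controls are not described as carrying Cre, so that the deletion and the transgene cannot be told apart, and cells other than cardiomyocytes in the csPIMT-/- heart kept an unrecombined PIMT gene. Because whole hearts were used, fewer cells of a type and less RNA per cell cannot be told apart either.

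Glucose enters a cardiomyocyte through transporters of the Slc2a family. GLUT1, encoded by Slc2a1, works without insulin and prevails in the fetal heart, whereas GLUT4, encoded by Slc2a4, is held in vesicles that move to the surface in response to insulin and contraction and prevails in the adult heart. Hexokinase traps the sugar as glucose 6-phosphate, phosphofructokinase commits it to glycolysis, aldolase splits it into triose phosphates, and lactate dehydrogenase converts pyruvate and lactate into each other. The adult heart burns mainly fatty acids, and a greater use of glucose is a known feature of the fetal and of the failing heart.

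Start-site sequences of these genes were read from RefSeq (GRCm38.p6) as windows of 300 bases, 250 before and 50 after a transcription start. Of the 9 genes, 8 matched a window and had 15 windows in all. Slc2a4 was not matched. The windows of the 4 genes with a single start are shown, since these range from Slc2a1, with the largest genotype difference of the 9 genes, to Hk2, with the smallest. They lie at chr4:119108495-119108794 on the plus strand for Slc2a1, at chr6:82774405-82774704 on the minus strand for Hk2, at chr10:78009758-78010057 on the minus strand for Pfkl and at chr6:142507908-142508207 on the minus strand for Ldhb. Capitals mark the letters ACGTG, the core of the hypoxia response element, and GGGCGG, the GC box, on either strand (CACGT and CCGCCC on the other).
Slc2a1: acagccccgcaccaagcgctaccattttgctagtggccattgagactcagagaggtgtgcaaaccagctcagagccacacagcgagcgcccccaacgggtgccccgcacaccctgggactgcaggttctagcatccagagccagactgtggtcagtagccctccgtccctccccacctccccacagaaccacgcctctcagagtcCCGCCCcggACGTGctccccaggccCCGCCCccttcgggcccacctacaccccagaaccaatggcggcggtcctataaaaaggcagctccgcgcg
Hk2: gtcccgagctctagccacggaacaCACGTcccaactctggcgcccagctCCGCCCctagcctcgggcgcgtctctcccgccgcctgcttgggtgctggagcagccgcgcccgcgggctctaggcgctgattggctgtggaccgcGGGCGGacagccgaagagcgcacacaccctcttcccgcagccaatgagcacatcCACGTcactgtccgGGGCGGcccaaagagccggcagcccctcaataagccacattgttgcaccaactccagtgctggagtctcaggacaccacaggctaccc
Pfkl: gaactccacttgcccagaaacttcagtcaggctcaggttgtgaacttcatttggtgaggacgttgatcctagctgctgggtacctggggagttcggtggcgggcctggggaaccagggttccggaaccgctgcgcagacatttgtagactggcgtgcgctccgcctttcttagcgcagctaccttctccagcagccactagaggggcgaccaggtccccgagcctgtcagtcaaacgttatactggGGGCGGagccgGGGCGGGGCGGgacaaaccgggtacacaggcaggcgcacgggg
Ldhb: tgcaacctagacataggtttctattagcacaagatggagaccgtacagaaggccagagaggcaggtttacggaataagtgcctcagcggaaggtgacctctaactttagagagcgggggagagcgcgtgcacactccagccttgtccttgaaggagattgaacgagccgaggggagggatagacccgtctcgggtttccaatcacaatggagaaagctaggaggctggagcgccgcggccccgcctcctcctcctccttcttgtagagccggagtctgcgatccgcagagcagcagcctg
The window of Slc2a1 held 1 ACGTG and 2 GC boxes, that of Hk2 held 2 and 3, that of Pfkl held no ACGTG and 3 GC boxes, a pair of which overlap, and that of Ldhb held neither. CACGTG, the E-box, contains ACGTG and was found in none of these 4 windows. Of all 15 windows, 8 held ACGTG, 6 a GC box and 2 an E-box, the last in 1 window of Ldha and 1 of Pfkm. Some windows of Aldoa and of Pfkm overlap, so that a site there can be counted in more than 1 window. Among the 32851 windows of all genes, 19.6% held ACGTG, 35.7% a GC box and 7.15% an E-box, and the median GC content was 52.7%, against 65.3%, 67.3%, 62.3% and 57.3% in the windows of Slc2a1, Hk2, Pfkl and Ldhb. A match of letters is a description of the sequence only.

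The libraries held 29823073 to 40705783 reads on genes, with 17169 to 17349 genes above 0. Values below are the deposited normalized counts, which are reads divided by a size factor of the library. The transcript of the targeted gene, listed as Tgs1, had 580 and 816 normalized counts in the 2- and 6-month controls and 160 and 162 in the csPIMT-/- libraries, a difference of -2.09 ± 0.31 (log2, SE; limma adjusted p = 0.0184). In limma, genotype and age were fitted over all 4 libraries, so that its error is the departure of these libraries from 2 additive effects, with 1 residual degree of freedom and a variance shared across genes. Of 14847 genes tested, 11.0% were called higher and 17.5% lower in csPIMT-/- hearts at an adjusted p below 0.05. Cardiomyocyte markers, 10 genes none of which was at 0, summed to 3498810 and 4042060 in controls and 2846170 and 2214740 in csPIMT-/- libraries, with Pln called lower. Most of the difference in this sum was Ttn, and the other 9 genes summed to 1629990 and 1593980 in controls and 1776850 and 1501420 in csPIMT-/- libraries. Atrial markers (4 genes) summed to 40737 and 114957 in controls and 325567 and 348345 in csPIMT-/- libraries, of which Nppa, called higher, was the largest part. The other 3 summed to 2554 and 44298 in controls and 124388 and 28049 in csPIMT-/- libraries. Leukocyte markers (6 genes) did not move together, since Cd68 and Csf1r were called higher while Ptprc had 412 and 948 in controls and 219 and 420 in csPIMT-/- libraries. Fibroblast markers (7 genes, Lum called lower) lay at 149112 to 285894 in controls and 195330 to 206375 in csPIMT-/- libraries, and lung markers (4 genes) were at 1154 in the 2-month csPIMT-/- library and at 1.73 to 15.6 in the others. Red blood cell markers, of which 4 of 7, the haemoglobin genes, were at 0 in every library, summed to 4486 and 3115 in controls and 2399 and 13328 in csPIMT-/- libraries. The 2-month csPIMT-/- library thus held the most of the atrial markers other than Nppa and of brown fat, white fat and lung markers. The 6-month csPIMT-/- library held the most of the red blood cell markers. The ratios at the other age are those without each of these libraries. The part of these cells in the differences of the 9 genes was not tested. The genotype difference moved with GC content over all genes (Spearman rho = 0.66 over 14679 genes of the same 4 libraries), and all 9 genes had a transcript GC content above the median of 50.2%. Each ratio below is therefore also given after subtraction of this GC trend. The part of GC content in these differences was not tested. Subtracted in the same way, the Tgs1 difference was -0.76, with an adjusted p of 0.209.

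The 9 genes lay mostly above control. Over both ages limma called 3 of them higher, namely Slc2a1, Pfkl and Aldoa, beside 11.0% of all genes, and none lower, beside 17.5%. At an unadjusted p below 0.05, 5 were higher and 0 lower, beside 20.7% and 24.7% of all genes. By adjusted p edgeR called 3 higher and 0 lower, beside 11.0% and 17.0% of all genes, and DESeq2 4 higher and 0 lower, beside 14.8% and 20.2%. Without a mean trend of the variance limma called 0 of the 9 and no other gene (at an unadjusted p below 0.05, 4 of the 9 were higher). Their median log2 difference was 0.73, beside 0.03 over all genes tested. In 7 of the 9 both csPIMT-/- libraries exceeded both controls, which was so for 35.2% of all genes, in none were both below both controls, which was so for 35.9%, and the libraries of Hk2 and Pfkm overlapped. Subtraction of the GC trend left a median of 0.14 for the 9 genes and 0.03 for all genes, and none of the 9 was then called.

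**Figure D1:**
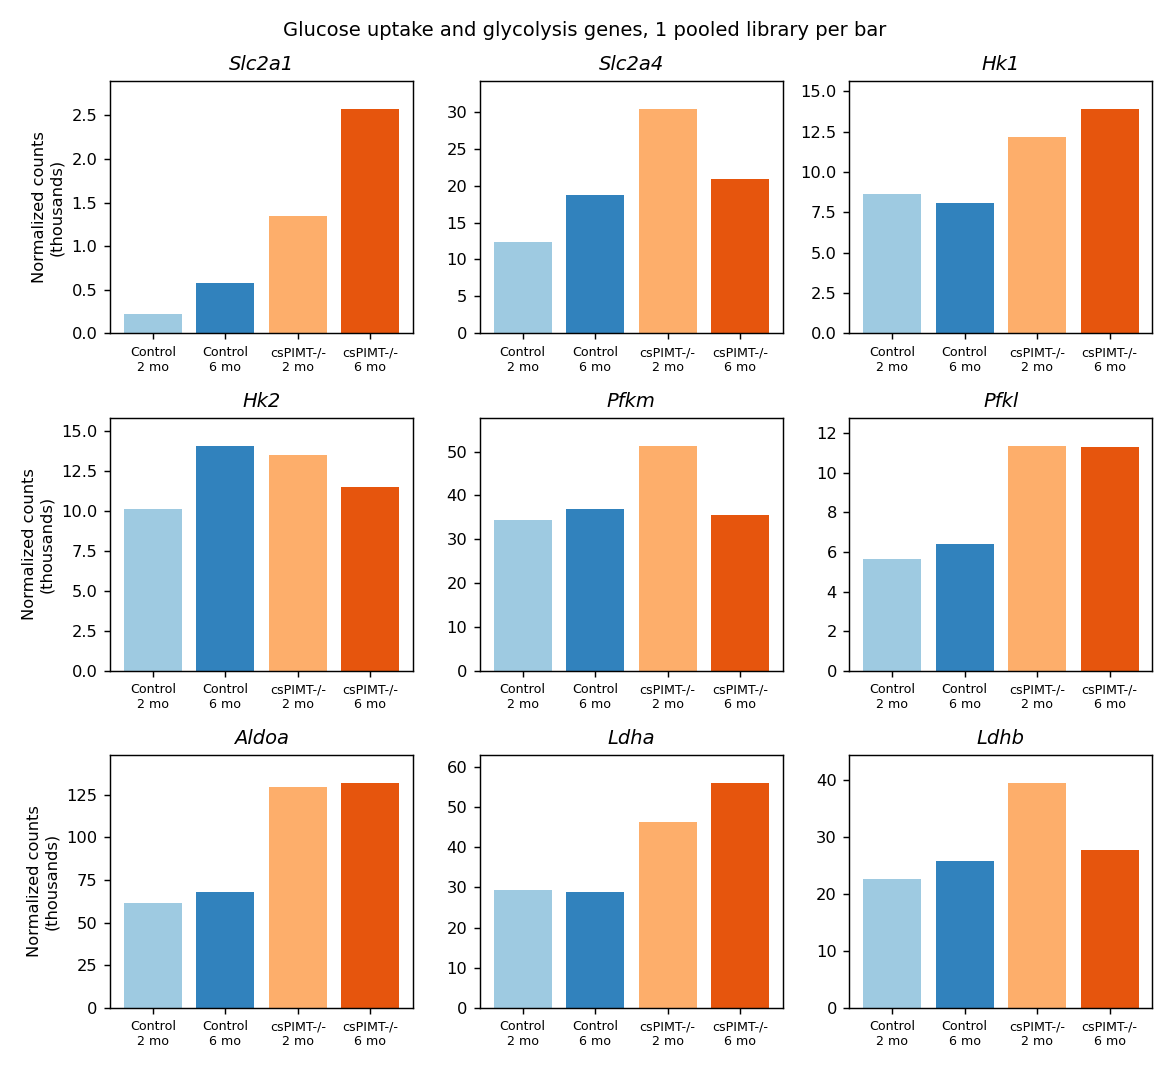
Normalized counts (y axis in units of 1000, from 0, scaled per gene) of the 9 genes in the 2-month control, 6-month control, 2-month csPIMT-/- and 6-month csPIMT-/- library; each bar is 1 pool of 5 hearts, with no error bar because no group had a replicate. In 7 panels both csPIMT-/- bars stand above both control bars, and in the panels of Hk2 and Pfkm they do not.

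Slc2a1 (chr4:119108711-119137983, plus strand, GRCm38), which encodes the insulin-independent transporter GLUT1, rose the most of the 9 genes. It had 220 normalized counts in the 2-month control, 582 in the 6-month control, 1345 in the 2-month csPIMT-/- library and 2572 in the 6-month csPIMT-/- library. Both csPIMT-/- libraries were above both controls, and within each genotype the older library was the higher. The csPIMT-/- value was 6.12 times control at 2 months (95% interval 5.33 to 7.04) and 4.42 times at 6 months (4.05 to 4.82), where the intervals, Clopper-Pearson from the reads of the 2 libraries, cover counting error only. The limma difference was 2.37 ± 0.26 (log2, SE; adjusted p = 0.0163). After subtraction of the GC trend the ratios were 4.41 and 3.08 and the limma difference 1.89, with an adjusted p of 0.101. Among 1577 genes within 1 percentage point of its GC content, 97.7% had a smaller difference than Slc2a1. The 6-month control had 2.65 times the value of the 2-month control, the widest gap between controls among the 9 genes, and set against the control of the other age the 2-month csPIMT-/- ratio was 2.31.

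Slc2a1 is also strongly expressed in endothelium. Endothelial markers, 6 genes none at 0, summed to 50932 to 67872 in controls and 49309 to 55043 in csPIMT-/- libraries, and Kdr and Tek were called lower. Their part in the Slc2a1 result was not tested.

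Slc2a4 (chr11:69942539-69948188, minus strand), which encodes the insulin-responsive transporter GLUT4, differed from Slc2a1 in its course. Its normalized counts were 12310 and 18705 in the 2- and 6-month controls and 30333 and 20908 in the 2- and 6-month csPIMT-/- libraries. The csPIMT-/- libraries did not overlap the controls, but the 6-month csPIMT-/- value lay close to that of its control, and age moved the genotypes in opposite directions. The ratio to control was 2.46 (2.41 to 2.52) at 2 months and 1.12 (1.10 to 1.14) at 6 months, or 1.64 and 0.734 after subtraction of the GC trend. Over both ages the difference was 0.73 ± 0.33 (log2, SE; limma adjusted p = 0.151). The paper that reported these data gave Slc2a4, as Glut4, below control at both ages, by RT-qPCR and by RNA-seq. There only the RT-qPCR value at 6 months was marked as significant, and RNA-seq values carried no such marks for any gene. Why the values in the paper differ in direction from the ratios here was not tested. Brown fat and skeletal muscle also express Slc2a4. Brown fat markers, 4 genes, summed to 11673 to 12337 in controls and 17030 to 22677 in csPIMT-/- libraries, mostly as Cox8b, while Ucp1, the defining gene, had 8.65 and 93.2 in controls and 1766 and 12.5 in csPIMT-/- libraries. Cox8b stood at 10438 and 10564 in controls, where Ucp1 was low, so that this sum is not a measure of brown fat alone. The other 3 genes summed to 1899 and 1108 in controls and 4356 and 2618 in csPIMT-/- libraries. Skeletal muscle markers, 8 genes, summed to 1558 to 2297 in controls and 4360 to 6152 in csPIMT-/- libraries, mostly as Mybpc2, which was called higher. The other 7 summed to 686 and 214 in controls and 333 and 534 in csPIMT-/- libraries. White fat markers, 4 genes, summed to 10.4 and 2759 in the 2- and 6-month controls and to 12076 and 2031 in the csPIMT-/- libraries. Of these 3 lists no gene was at 0 in every library, and their part in the Slc2a4 values was not tested.

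Hexokinase genes gave small differences. Hk1 (chr10:62268855-62379908, minus strand), the broadly expressed form, had 8661 and 8062 normalized counts in the 2- and 6-month controls and 12178 and 13904 in the csPIMT-/- libraries. Both csPIMT-/- libraries were above both controls, the older one by more. Its ratio was 1.41 (1.37 to 1.45) at 2 months and 1.72 (1.68 to 1.77) at 6 months, with a limma difference of 0.64 ± 0.21 (log2, SE; adjusted p = 0.0760). Subtraction of the GC trend brought the ratios to 0.905 and 1.10. Hk2 (chr6:82725025-82774454, minus strand), the insulin-regulated form of muscle, had 10105 and 14068 normalized counts in the 2- and 6-month controls and 13528 and 11503 in the csPIMT-/- libraries. The genotypes overlapped, with the 6-month control highest and the 2-month control lowest. Its ratio was 1.34 (1.30 to 1.37) at 2 months and 0.818 (0.798 to 0.838) at 6 months, and the difference over both ages was 0.07 ± 0.26 (log2, SE; limma adjusted p = 0.861). GC subtraction gave Hk2 ratios of 1.15 and 0.667. In the paper that reported these data Hk2 was below control at both ages, by RT-qPCR and by RNA-seq. Only its RT-qPCR value at 6 months was marked as significant there, where RNA-seq values carried no marks. At 2 months the direction is opposite to that of the ratio here, and the reason was not tested.

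The phosphofructokinase genes parted. Pfkm (chr15:98092589-98132451, plus strand) encodes the muscle subunit and had 34264 and 36936 normalized counts in the 2- and 6-month controls and 51210 and 35461 in the csPIMT-/- libraries. Only the 2-month csPIMT-/- library stood above the rest, and the 6-month one lay between the controls. Pfkm was at 1.49 times control (1.47 to 1.52) at 2 months and 0.960 times (0.946 to 0.974) at 6 months, with a difference of 0.26 ± 0.27 (log2, SE; limma adjusted p = 0.491). Its GC-subtracted ratios were 1.04 and 0.649. Pfkl (chr10:77986947-78010083, minus strand), which encodes the liver subunit, had 5639 and 6419 normalized counts in the controls and 11353 and 11315 in the csPIMT-/- libraries. The csPIMT-/- libraries were nearly level with each other and well above both controls. Pfkl was 2.01 times control (1.95 to 2.08) at 2 months and 1.76 times (1.71 to 1.82) at 6 months, and rose by 0.91 ± 0.20 (log2, SE; limma adjusted p = 0.0327). After the GC trend was subtracted the ratios were 1.27 and 1.10, the limma difference was 0.25, and 66.2% of 1295 genes of like GC content had a smaller difference.

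Aldoa (chr7:126795234-126800751, minus strand), the muscle aldolase, had 61791 and 68079 normalized counts in the 2- and 6-month controls and 129862 and 131769 in the csPIMT-/- libraries. Like Pfkl, it was level with age within each genotype and clearly apart between genotypes. The ratio was 2.10 (2.08 to 2.12) at 2 months and 1.94 (1.92 to 1.95) at 6 months, and Aldoa rose by 1.01 ± 0.27 (log2, SE; limma adjusted p = 0.0485). This call was close to the threshold: on the TMM scale the adjusted p was 0.0586 and without the filter on low values 0.0736. GC subtraction left ratios of 1.33 and 1.21 and a limma difference of 0.35, and 71.6% of 1305 genes of like GC content had a smaller difference. Aldoa, Ldha and other glycolytic genes have near-identical copies in the mouse genome, and how the counting treated reads shared with them is not given in the sources used here.

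Lactate dehydrogenase is built from Ldha, the form prevailing in muscle, and Ldhb, the form prevailing in heart. Ldha (chr7:46841475-46855627, plus strand) had 29306 and 28843 normalized counts in the 2- and 6-month controls and 46425 and 55972 in the csPIMT-/- libraries. Both csPIMT-/- libraries exceeded both controls, and the older one was the higher. Its ratio was 1.58 (1.56 to 1.61) at 2 months and 1.94 (1.91 to 1.97) at 6 months, and the difference over both ages was 0.81 ± 0.24 (log2, SE; limma adjusted p = 0.0600). DESeq2 on the recovered reads gave Ldha an adjusted p of 0.0186. After GC subtraction the ratios were 1.42 and 1.65, the latter the largest of the 9 genes at 6 months after that of Slc2a1, and 79.1% of 1490 genes of like GC content had a smaller difference. Ldhb (chr6:142490249-142507957, minus strand) had 22634 and 25889 normalized counts in the controls and 39464 and 27799 in the csPIMT-/- libraries. The 2-month csPIMT-/- library was far above the others, and the 6-month one was just above its control. Ldhb stood at 1.74 times control (1.72 to 1.77) at 2 months and 1.07 times (1.06 to 1.09) at 6 months, with a difference of 0.45 ± 0.27 (log2, SE; limma adjusted p = 0.249). Its GC-subtracted ratios were 1.36 and 0.797.

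**Figure D2:**
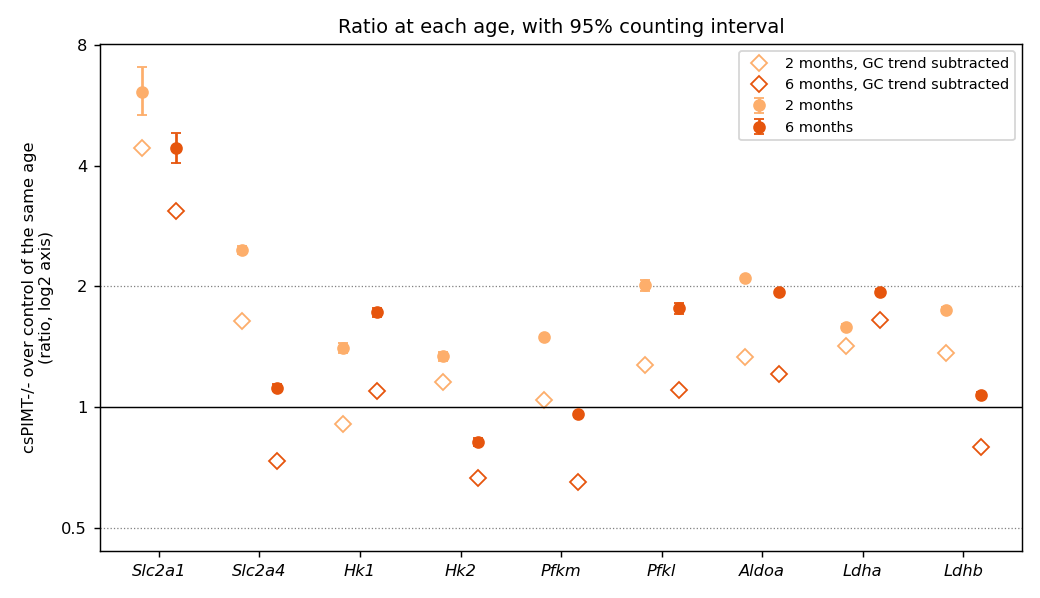
Ratio of csPIMT-/- to the control of the same age (log2 axis) for the 9 genes at 2 months (light) and 6 months (dark); filled points carry 95% counting intervals, open diamonds are the ratios after subtraction of the GC trend, and dotted lines mark ratios of 0.5 and 2. Slc2a1 stands apart at 6.12 and 4.42, and at 6 months Hk2 (0.818) and Pfkm (0.960) lie below 1.

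Counted at each age, 9 of the 9 genes had a ratio above 1 at 2 months, beside 49.9% of all genes, and 7 had one at 6 months, beside 50.1%. A ratio above 2 was found for 4 genes at 2 months (Slc2a1, Slc2a4, Pfkl and Aldoa), where 17.3% of all genes had one, and at 6 months for Slc2a1 alone, where 16.9% of all genes had one. No gene of the 9 was below 0.5 at either age, beside 22.5% of all genes at 2 months and 24.9% at 6 months. Against the control of the other age 1 gene was above 2 at 2 months, and 3 at 6 months. With the GC trend subtracted, 8 genes were above 1 at 2 months and 5 at 6 months.

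Between 2 and 6 months the genes took different courses. In controls 7 of the 9 were higher at 6 than at 2 months, and in csPIMT-/- hearts 5 were lower. The csPIMT-/- value at 6 months was 0.689 times that at 2 months for Slc2a4, 0.850 for Hk2, 0.692 for Pfkm, 0.997 for Pfkl and 0.704 for Ldhb. It was 1.91 for Slc2a1, 1.14 for Hk1, 1.01 for Aldoa and 1.21 for Ldha. The same quotient in controls was 1.52 for Slc2a4, 1.39 for Hk2, 1.08 for Pfkm and 1.14 for both Pfkl and Ldhb, and 2.65 for Slc2a1, 0.931 for Hk1, 1.10 for Aldoa and 0.984 for Ldha. Slc2a4, Pfkm and Ldhb were highest in the 2-month csPIMT-/- library, and Slc2a1, Hk1 and Ldha in the 6-month one. The former also had the most RNA of brown fat, white fat and lung markers and of atrial markers other than Nppa. The latter had the most red blood cell marker RNA. The part of these cells in these values was not tested. With 1 library for each age and genotype, the difference between ages was not tested.

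Shares within these 4 pairs do not depend on how the libraries were scaled. They can still move with GC content, and the GC trend was not subtracted from them. In the hexokinase pair the transcript GC content was 56.4% for Hk1 and 51.9% for Hk2. The GC-subtracted ratios of Hk1 and Hk2 were 0.905 and 1.15 at 2 months and 1.10 and 0.667 at 6 months. Slc2a1 made up 1.75% of the reads of Slc2a1 and Slc2a4 in the 2-month control, 3.02% in the 6-month control, 4.25% in the 2-month csPIMT-/- library and 11.0% in the 6-month csPIMT-/- library (95% Clopper-Pearson interval of the last 10.5% to 11.4%, counting error only). Both csPIMT-/- shares were above both control shares, and that of the 6-month library was far above the rest. Hk1 made up 46.2% and 36.4% of the hexokinase pair in the 2- and 6-month controls and 47.4% and 54.7% in the csPIMT-/- libraries. At 2 months the shares of the genotypes were close, with intervals of 45.5% to 46.8% and 46.7% to 48.1% that overlapped, and at 6 months they were apart. Pfkl made up 14.1% and 14.8% of the phosphofructokinase pair in the controls and 18.1% and 24.2% in the csPIMT-/- libraries. The controls lay close together and both csPIMT-/- libraries above them. Ldhb made up 43.6% and 47.3% of the lactate dehydrogenase pair in the controls and 45.9% and 33.2% in the csPIMT-/- libraries. Its share at 2 months lay between those of the controls, and only the 6-month csPIMT-/- library was below them. With 2 libraries against 2 an exact permutation test cannot give a p below 0.333, so no test was made. These are shares of reads, so that the longer transcript of a pair weighs more.

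**Figure D3:**
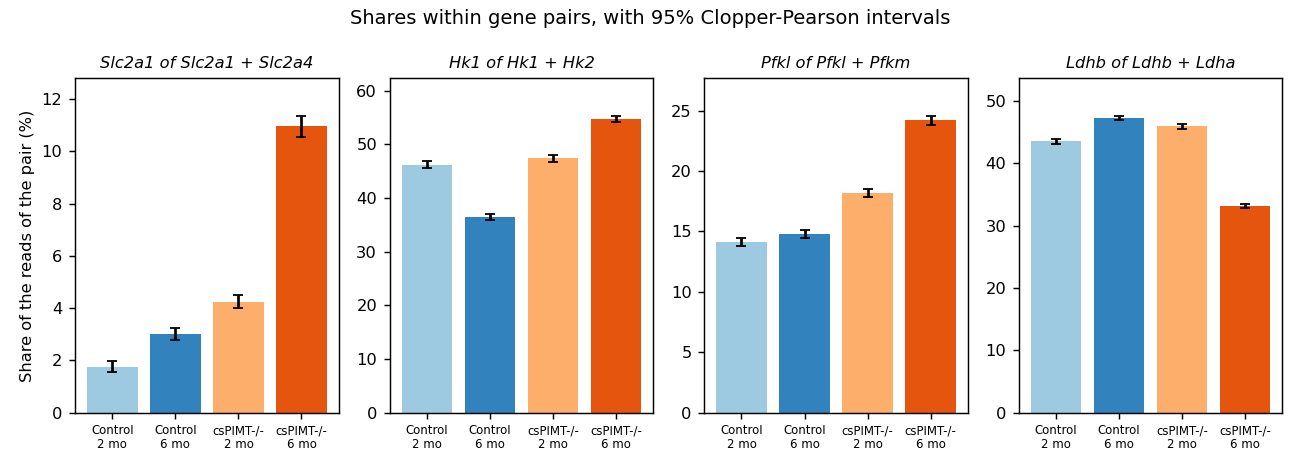
Share of the first gene in the reads of each pair (%, y axis from 0, scaled per panel) in the 4 libraries; error bars are 95% Clopper-Pearson intervals, which cover counting error only. The 6-month csPIMT-/- library has the highest share of Slc2a1 (11.0%), Hk1 (54.7%) and Pfkl (24.2%) and the lowest share of Ldhb (33.2%).

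Compared per kilobase of transcript, Aldoa had the highest level of the 9 genes in every library, at 39891 and 43950 normalized counts per kilobase in the 2- and 6-month controls and 83836 and 85067 in the csPIMT-/- libraries. Ldhb, Ldha and Pfkm followed, at 11901 to 30839. Ldhb was above Ldha in both controls and in the 2-month csPIMT-/- library, and below it in the 6-month csPIMT-/- library, at 21319 against 30839. Slc2a4 came the fifth in every library, at 4877 and 7411 in controls and 12018 and 8284 in csPIMT-/- libraries. Hk1, Hk2 and Pfkl, at 1512 to 3250, changed places from library to library and had no settled order. Slc2a1 was lowest everywhere, at 67.4 and 179 in controls and 413 and 789 in csPIMT-/- libraries.

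The pathway gene with the profile most like each of the 9 was found over the 4 libraries, as the smallest distance between centred log2 profiles among 112 other pathway genes. Pfkl was closest to Prkag1, a regulatory subunit of AMP-activated kinase, at a distance of 0.05, and 2 of all 14846 other genes were as close, Prkag1 included. The counts that follow likewise include the named gene. Ldha was closest to Gpi1, the glucose phosphate isomerase, at 0.06 with 19 genes as close, and Aldoa to Tpi1, the triose phosphate isomerase, at 0.08 with 25. Slc2a4 was closest to Pygm, the muscle glycogen phosphorylase, at 0.21 with 43, and Hk1 to the pyruvate kinase gene Pkm2 at 0.14 with 138. Pfkm and Ldhb were closest to each other, at 0.20, with 125 and 129 genes as close. Less close were Hk2 to Sort1, at 0.35 with 362, and Slc2a1 to Pfkfb3, at 1.10 with 332. Likeness over 4 libraries is a description of these profiles.

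Beyond the 9 genes, 10 lists held 109 other genes of glucose metabolism, of which 104 were tested. By limma 17 were called higher, 18 lower and 69 neither, where 11.0% of all genes were called higher and 17.5% lower. Their median log2 difference was 0.25, or 0.11 with the GC trend subtracted, when none was called. Over all genes both medians were 0.03. The same 2 shares of all genes stand beside the counts of each list below, and a count near them says little about a list. Of the 7 other glucose transporters tested, 1 was called higher, Slc2a8, at 715 and 901 normalized counts in controls and 1899 and 1666 in csPIMT-/- libraries (limma adjusted p = 0.0322), with a GC-subtracted difference of 0.37. Slc2a3, which encodes the neuronal transporter GLUT3, had 200 and 182 in controls and 182 and 456 in csPIMT-/- libraries and did not pass. The lowest difference of this list was that of Slc2a12, at -0.74 with an adjusted p of 0.229 in limma.

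The upper steps of glycolysis were mostly above control. In the upper steps 2 of 5 other genes were called higher and none lower, beside 11.0% and 17.5% of all genes. Gpi1 had 14181 and 14654 in controls and 23261 and 27101 in csPIMT-/- libraries (limma adjusted p = 0.0480). Tpi1 had 28151 and 28827 in controls and 56394 and 58849 in csPIMT-/- libraries (limma adjusted p = 0.0347). Their GC-subtracted differences were 0.36 and 0.59. The platelet phosphofructokinase gene Pfkp had 5097 and 4174 in controls and 6107 and 9213 in csPIMT-/- libraries, with an adjusted p of 0.114 in limma. The aldolase gene Aldoc had a limma difference of 2.02, with an adjusted p of 0.0582.

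Genes that set the level of fructose 2,6-bisphosphate, the activator of phosphofructokinase, and the gluconeogenic bisphosphatase moved in both directions. Of these 7 genes 1 was called higher and 2 lower, beside 11.0% and 17.5% of all genes. Pfkfb3, an inducible form of the enzyme that makes the activator, had 606 and 951 normalized counts in controls and 1520 and 2705 in csPIMT-/- libraries, and rose by 1.42 ± 0.22 (log2, SE; limma adjusted p = 0.0194). Pfkfb2, the cardiac form, had 4767 and 8044 in controls and 2542 and 2733 in csPIMT-/- libraries, and fell by 1.23 on the log2 scale (limma adjusted p = 0.0269), or by 0.44 with the GC trend subtracted. The GC-subtracted difference of Pfkfb3 was 1.41. Fbp2, the muscle fructose bisphosphatase, which works against phosphofructokinase, had 1442 and 978 in controls and 287 and 119 in csPIMT-/- libraries. Both csPIMT-/- libraries lay far below both controls, and Fbp2 fell by 2.68 on the log2 scale (limma adjusted p = 0.0163), or by 2.83 with the GC trend subtracted.

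In the lower steps 1 of 8 genes was called higher and none lower, beside 11.0% and 17.5% of all genes. The gene called higher was Eno2, the neuronal enolase, at 85.7 and 96.7 normalized counts in controls and 259 and 253 in csPIMT-/- libraries (limma adjusted p = 0.0416). Eno3, the muscle enolase, had 56518 and 56464 in controls and 73818 and 45331 in csPIMT-/- libraries. The 2-month csPIMT-/- value was above both controls and the 6-month value below both. Its ratio was 1.31 at 2 months and 0.803 at 6 months, or 0.918 and 0.548 after subtraction of the GC trend. Gapdh was listed at 454 to 2192, Eno1 at 1.73 to 4.93 and the aldose reductase gene Akr1b3 at 0 in every library, genes with near-identical copies whose counts are uncertain. In lactate handling 1 of 5 other genes was called higher, Slc16a3, which encodes the lactate exporter MCT4, at 227 and 214 in controls and 525 and 1345 in csPIMT-/- libraries (limma adjusted p = 0.0326). Slc16a1, which encodes MCT1, had 18834 and 17275 in controls and 11927 and 10686 in csPIMT-/- libraries and did not pass (limma adjusted p = 0.0630). Its difference of -0.68 turned to 0.52 with the GC trend subtracted, where Eno2 and Slc16a3 had differences of 0.94 and 1.28.

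**Figure D4:**
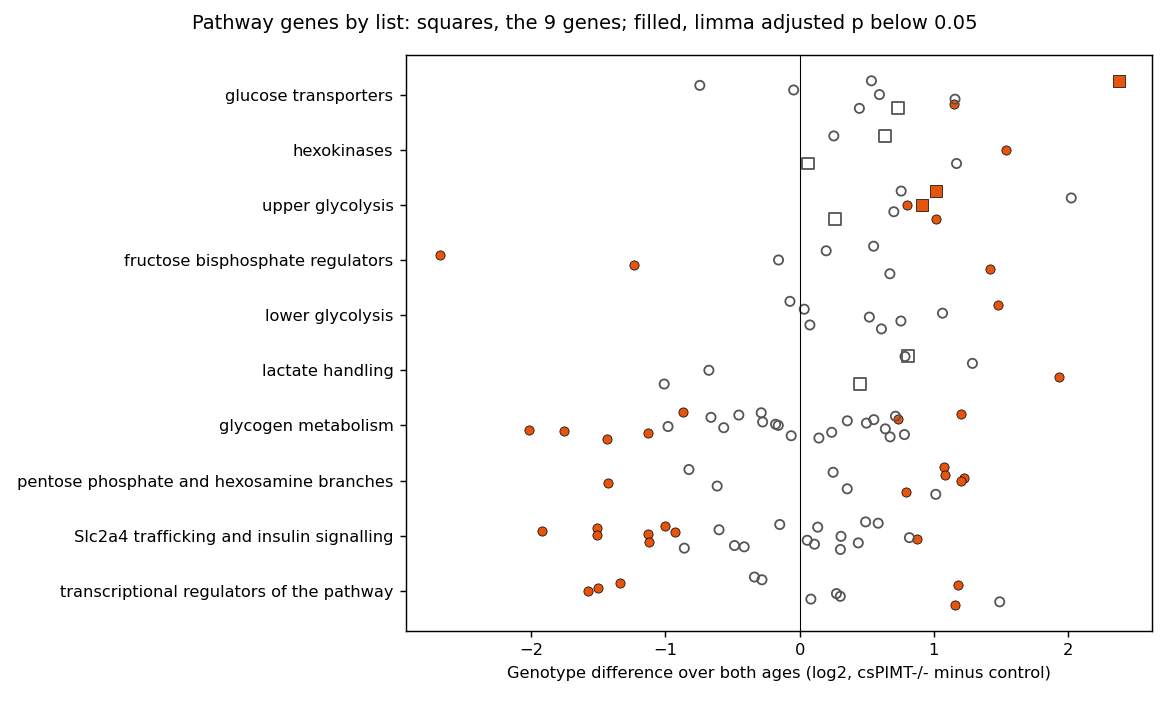
Genotype difference over both ages (log2, csPIMT-/- minus control, x axis) of the genes tested in 10 lists (rows); squares are the 9 genes, circles the others, and filled symbols have a limma adjusted p below 0.05. Called genes of the first 6 rows lie to the right of 0 apart from Fbp2 (-2.68) and Pfkfb2 (-1.23), and in the lower 4 rows genes are called on both sides.

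Of 25 glycogen genes 2 were called higher and 5 lower, beside 11.0% and 17.5% of all genes. Gaa, the lysosomal glucosidase, had 3766 and 5136 normalized counts in controls and 10670 and 9575 in csPIMT-/- libraries. Ppp1r3a, which targets a phosphatase to glycogen in striated muscle, had 8797 and 15846 in controls and 2204 and 3851 in csPIMT-/- libraries and fell by 2.02 on the log2 scale (limma adjusted p = 0.0163). After GC subtraction the Ppp1r3a difference was -0.14, its transcript having a GC content of 36.7%. In the pentose phosphate and hexosamine branches 5 of 11 were called higher (G6pdx, H6pd, Pgd, Pgls and Taldo1) and 1 lower (Rpe). Pgd, the phosphogluconate dehydrogenase, had 1210 and 1278 in controls and 2562 and 3278 in csPIMT-/- libraries and rose by 1.22 ± 0.22 (log2, SE; limma adjusted p = 0.0226), or 0.72 with the GC trend subtracted.

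Genes of Slc2a4 trafficking and insulin signalling had 1 of 22 called higher and 7 lower, beside 11.0% and 17.5% of all genes. Prkag1 was the one called higher, at 4237 and 4753 normalized counts in controls and 8256 and 8154 in csPIMT-/- libraries (limma adjusted p = 0.0351) and with a GC-subtracted log2 difference of 0.51. Pik3ca, the catalytic subunit of phosphatidylinositol 3-kinase, had 4187 and 5812 in controls and 1298 and 1312 in csPIMT-/- libraries. It fell by 1.92 on the log2 scale (limma adjusted p = 0.0163), or by 0.50 with the GC trend subtracted. Irs1, Lnpep, Pik3r1, Prkaa1, Prkaa2 and Rab10 were also called lower. Among 11 transcriptional regulators 2 were called higher (Klf15 and Txnip) and 3 lower (Hif1a, Mef2a and Mef2c). Mef2c, which encodes a muscle transcription factor known to act on the Slc2a4 gene, had 4275 and 4451 in controls and 1324 and 1619 in csPIMT-/- libraries. Its difference was -1.57 ± 0.21 (log2, SE; limma adjusted p = 0.0163) and -0.11 after GC subtraction. Klf15, another regulator known to act on Slc2a4, had 1451 and 1702 in controls and 2435 and 5207 in csPIMT-/- libraries, and rose by 1.18 ± 0.28 (log2, SE; limma adjusted p = 0.0374), or 0.63 with the GC trend subtracted.

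**Figure D5:**
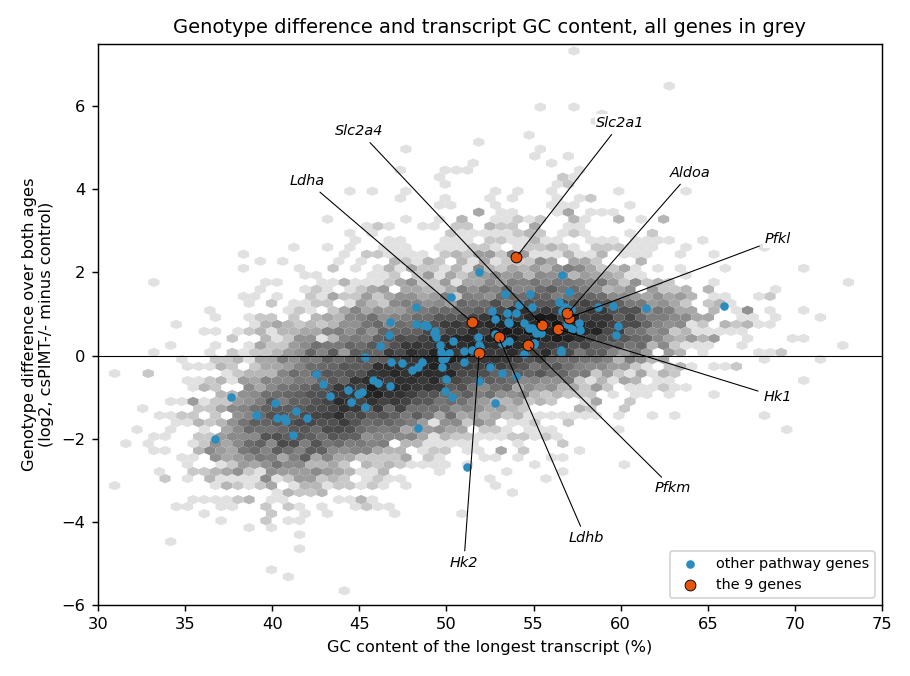
Genotype difference over both ages (log2, csPIMT-/- minus control) against the GC content of the longest transcript (%), for all genes as grey bins, darker for more genes, with other pathway genes in blue and the 9 genes in orange. The 9 genes lie between 51.5% and 57.1% GC, where most genes are above 0, and Slc2a1 is above 97.7% of genes of like GC content.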

How the data were processed

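The authors generated single-end, oligo-dT-selected, directional libraries from pooled heart RNA, used STAR for alignment on build mm10, and scaled the counts per gene with DESeq2. The submitters' processing notes name HTSeq 0.6.1p1 for counting. The deposited values are normalized counts, a signal of reads divided by a size factor, although one column, that of the oldest csPIMT-/- mice, bears the heading of read counts. In each library 100% of the values were whole multiples of the smallest value above 0, within a tolerance of 1e-06 reads, and reads were recovered by dividing by it. This gave 29823073 to 40705783 reads on genes per library.

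Genotype and age were fitted with limma 3.58.1 (R 4.3.3) on log2(normalized count + 1) with a mean trend of the variance and Benjamini-Hochberg adjustment over 14847 genes, which reached 10 in 2 or more libraries and summed to 15 or more. Fold changes are on this log2 scale, which understates those of low genes. The residual degree of freedom was 1 and the prior 4.01. The error behind the p-values is thus the departure from 2 additive effects, with a variance shared across genes. It is not the spread between pools of one group, and a genotype difference that changes with age is part of it. Ratios at each age needed at least 10 reads in 1 of the 2 libraries and carry no test. Transcript length and GC content came from the longest protein-coding transcript of each symbol in GENCODE M21 (GRCm38), or else the longest of any type. A GC value was found for 98.9% of genes tested. Coordinates are those of the whole gene in the same annotation. The GC trend was a lowess curve with a span of 0.3. edgeR 4.0.16 and DESeq2 1.42.0 were run on the recovered reads as alternatives. edgeR called 1637 genes higher and 2521 lower. No batch is named in the labels, and no within-batch value could be computed. The strand setting of the counting is not given in the sources used here.

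The 9 genes, the lists and the tests were chosen with earlier results of these data known. Of other pathway genes, those named were isozymes of the same steps, up to 2 genes at either end of each list that reached 100 in 1 library, and the closest profiles. Genes named because they were called within a list were named after their values were seen. Some genes of the lists are counted but not reported here by name.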

Additional observations from a re-analysis of the deposited data

Results flagged for a closer look

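The genotypes moved in opposite directions at the 2 ages for 3 quantities. These differences between ages were not tested, since each rests on 1 pooled library per age and genotype. The ratio of csPIMT-/- to control for Hk2 was 1.34 at 2 months and 0.818 at 6 months. For Pfkm it was 1.49 at 2 months and 0.960 at 6 months. The share of Ldhb in the reads of Ldhb and Ldha differed between csPIMT-/- and control by 2.37 percentage points at 2 months and by -14.1 points at 6 months. Set against the control of the other age, the ratios were 0.962 and 1.14 for Hk2 and 1.39 and 1.03 for Pfkm at 2 and 6 months, and the differences in Ldhb share were -1.35 and -10.4 points. With the GC trend subtracted the 2- and 6-month ratios were 1.15 and 0.667 for Hk2 and 1.04 and 0.649 for Pfkm. No group had enough libraries for a check of single libraries that stand apart.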

How the results depend on the processing

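The 9 genes stayed on the upper side of 0 over both ages in every limma, edgeR and DESeq2 fit except after subtraction of the GC trend, where Hk2 was at -0.18 and Pfkm at -0.27. No genes were called in either direction, and 0 of the 9, without the mean trend or with the GC trend subtracted, against 1637 higher, 2595 lower and 3 of the 9 otherwise. At an unadjusted p below 0.05 the fit without the trend had 2517 genes higher and 3448 lower, and that with GC subtraction 1871 and 1693. Of the 9 genes 2 to 4 were called in the other fits, TMM scale and no filter losing Aldoa, and a mean of at least 100, genotype alone or DESeq2 adding Ldha. At 6 months alone Hk2 was at -0.29 and Pfkm at -0.059. Genes with a ratio above 2 at 2 months went from 2616 to 1724 with at least 100 reads, a filter that also leaves fewer genes to compare. With GC subtraction genes below 0.5 fell from 3405 to 1648 at 2 months and from 3794 to 1924 at 6 months. Of the 9, the number above 2 at 2 months went from 4 to 1 with the control of the other age, the mean of both controls or GC subtraction, and at 6 months from 1 to 3 with the other control and 2 with the mean. Ratios that crossed 1 were, with GC subtraction, 0.905 for Hk1 at 2 months and 0.734 for Slc2a4 and 0.797 for Ldhb at 6 months, and, with the other control, 0.962 for Hk2 at 2 months and 1.14 for Hk2 and 1.03 for Pfkm at 6 months. Genotype differences in pair share, in percentage points, became per kilobase 1.96 (from 2.49) and 6.34 (from 7.93) for Slc2a1 and 3.34 (from 4.01) and 7.93 (from 9.38) for Pfkl at 2 and 6 months. With the other control they were 1.23 and 9.20 for Slc2a1, 10.9 and 8.57 for Hk1 (from 1.22 and 18.3), 3.34 for Pfkl at 2 months, and -1.35 and -10.4 for Ldhb (from 2.37 and -14.1). The GC trend was not subtracted from the shares. The cause of the changes above was not tested. Leaving out a library leaves no residual degree of freedom, so that such a fit could not be made with both terms and only values of single ages are given. No paired analysis was possible because each group had 1 library and the labels give no replicate numbers. Depth did not limit the 9 genes, whose lowest count was 254 reads.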
